A study of Mus musculus with 6 samples.

Results

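NRF2, encoded by Nfe2l2, its inhibitor KEAP1 and 8 antioxidant and heme-degrading genes that NRF2 is known to control were followed in polysome RNA of M2 RAW264.7 cells given BMH-21 or DMSO. The members were chosen by symbol, as the rows named Nfe2l2, Keap1, Nqo1, Hmox1, Gclc, Gclm, Txnrd1, Srxn1, Prdx1 and Blvrb, and all 10 were present among the 19233 genes of the table. RAW264.7 is a mouse macrophage-like line. Both groups were titled M2, the alternatively activated state, and each held 3 libraries. In the BMH-21 group, 500 nM of the compound, an inhibitor of RNA polymerase I, was added 24 h after polarization and left for 24 h. The DMSO group received the solvent. The treatment text in the labels speaks of bone marrow macrophages, polarized with 20 ng/ml of IL-4 or with LPS and interferon gamma, and does not name the agent used on the line itself. RNA came from polysome fractions, where mRNAs carry several ribosomes, so that a value joins the amount of an mRNA with its loading on ribosomes. The lysates were bulk samples, in which fewer cells with an mRNA and less of it per cell cannot be told apart.

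In unstressed cells KEAP1 links NRF2 to the CUL3 ubiquitin ligase, and NRF2 is degraded. Electrophiles and oxidants modify cysteines of KEAP1, and NRF2 that escapes degradation enters the nucleus, pairs with a small MAF protein and binds antioxidant response elements. The repressor BACH1 occupies many of the same elements, above all at Hmox1, until heme removes it. In macrophages the target genes serve glutathione and thioredoxin supply, peroxide removal and the breakdown of heme from engulfed red cells. NRF2 is regulated largely through its protein stability, which these data do not measure.

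Low values implied 18770000 to 22560000 reads per BMH-21 library and 21610000 to 24070000 per DMSO library. Of 9748 tested genes, limma called 19.9% higher and 58.4% lower in BMH-21 at an adjusted p of 0.05, and the median log2 fold change of all tested genes was −0.23. Values are FPKM, in which fragments are set against the length of the transcript and the size of the library, so a value is a share. Rescaling by the median of ratios, which sets the typical gene level, shifted the median by 0.24 and left 38.2% of genes higher and 35.3% lower. For the members and the genes named with them, it is stated where any of the 4 other scalings turned a direction or ended a call. Of 10 macrophage markers, 9 reached 1 FPKM in at least 3 libraries and Mertk did not, with a summed level of 18584 to 19798 FPKM in BMH-21 and 10812 to 11211 FPKM in DMSO. Most of that sum was Lyz2, at 16726 to 17915 FPKM in BMH-21 and 9210 to 9634 FPKM in DMSO, and the markers did not move together. Lyz2, Cd14, Cd68, Spi1 and Itgam were higher in every BMH-21 library than in any DMSO library, and Adgre1, Fcgr1, Csf1r, Ptprc and Mertk were lower. Adgre1 was at 22.3 to 23.3 FPKM in BMH-21 and 39.3 to 41.9 FPKM in DMSO. Lck was the only T cell marker of 4 in the table, at 1.88 to 2.09 FPKM in BMH-21 and 2.81 to 3.62 FPKM in DMSO. For B cells, fibroblasts and red cells, 2 of 4 listed markers each were in the table. Those of B cells and fibroblasts summed to under 0.1 FPKM in every library, and those of red cells to at most 0.775 FPKM in BMH-21 and 1.23 FPKM in DMSO. The summed level of 4 epithelial markers (Epcam, Krt8, Krt18 and Cdh1) was 13.9, 10.9 and 13.0 FPKM in BMH-21 libraries 1, 2 and 3, against 0, 0.0880 and 9.66 FPKM in DMSO libraries 1, 2 and 3. Epithelial signal was thus near 0 in DMSO libraries 1 and 2 and present in the other 4. Most of it was Krt18, at 8.89, 6.41 and 8.09 FPKM in BMH-21 and 0, 0.0644 and 5.47 FPKM in DMSO. The part of this signal in the results was not tested. Against DMSO library 3 alone, the 9 tested members kept the direction they had against all 3 DMSO libraries, and the calls of Nfe2l2 and Keap1 were lost.

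Antioxidant response elements share a core that was searched as TGACNNNGC, or GCNNNGTCA on the other strand, within 250 bases before and 50 bases after each gene start. RefSeq promoter windows (GRCm38.p6) were matched for 8 of the 10 members, and the core was found in windows of 5 of them. It was present in 12.4% of all 32851 windows of this length, and 14.0% of 27025 genes had it in at least 1 window. The matches are shown because they let a reader set each gene's values beside the letters near its start. Each line runs 5′ to 3′ along the gene's strand, with the core in capitals.
Nfe2l2 (chr2:75704870-75704913, minus strand): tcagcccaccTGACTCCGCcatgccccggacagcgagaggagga
Gclm (chr3:122245398-122245456, plus strand): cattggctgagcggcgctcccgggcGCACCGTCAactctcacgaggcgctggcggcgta
Txnrd1 (chr10:82859089-82859147, plus strand): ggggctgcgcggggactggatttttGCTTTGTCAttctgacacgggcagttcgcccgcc
Prdx1 (chr4:116685441-116685499, plus strand): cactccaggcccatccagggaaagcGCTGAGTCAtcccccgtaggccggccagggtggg
Srxn1 (chr2:152105542-152105570, plus strand): gcagtgggcaGCTAGGTCAgagtgagaca
Distances count from the RefSeq starts of these windows, which differ for some genes from the ends of the GENCODE gene spans given below. The core began 240 bases before the start of Nfe2l2, 134 before that of Gclm, 133 before that of Prdx1 and 92 before a downstream annotated start of Txnrd1. In Srxn1 it lay inside the transcribed region, from base 29. The Prdx1 match also holds TGAGTCA, the AP-1 site TGACTCA read from the other strand, and the other 4 matches do not. The windows of Keap1, Nqo1 and Blvrb did not hold these letters, and sequence outside the windows was not searched. No window was matched for Hmox1 and Gclc. A match is a description of the letters and not a measured binding site.

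With BMH-21 the set did not move as a block. Of the 10 members, 9 passed the low-value filter of at least 1 FPKM in at least 3 libraries. Of these 9, limma called 2 higher (Srxn1 and Nfe2l2), 6 lower (Blvrb, Gclc, Prdx1, Gclm, Txnrd1 and Keap1) and left Hmox1 uncalled, where 19.9% of all tested genes were called higher and 58.4% lower, and 78.3% either way. With median-ratio scaling 4 members were higher and 2 lower, beside 38.2% and 35.3% of all genes. With upper-quartile scaling 3 were higher and 2 lower, beside 34.4% and 39.8%. Quantile normalization gave 2 higher and 3 lower, beside 36.1% and 35.9%, and equal column totals 1 higher and 6 lower, beside 14.2% and 67.9%. The groups did not overlap in 8 of the 9, against 79.8% of all tested genes, so that the share that differed was near the background. Only 3 of the 9 kept their call and direction under all 5 scalings: Srxn1, which rose, and Blvrb and Gclc, which fell. Among all tested genes 14.0% were called higher and 30.9% lower under all 5. This stricter reading was chosen after the values were seen.

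**Figure D1:**
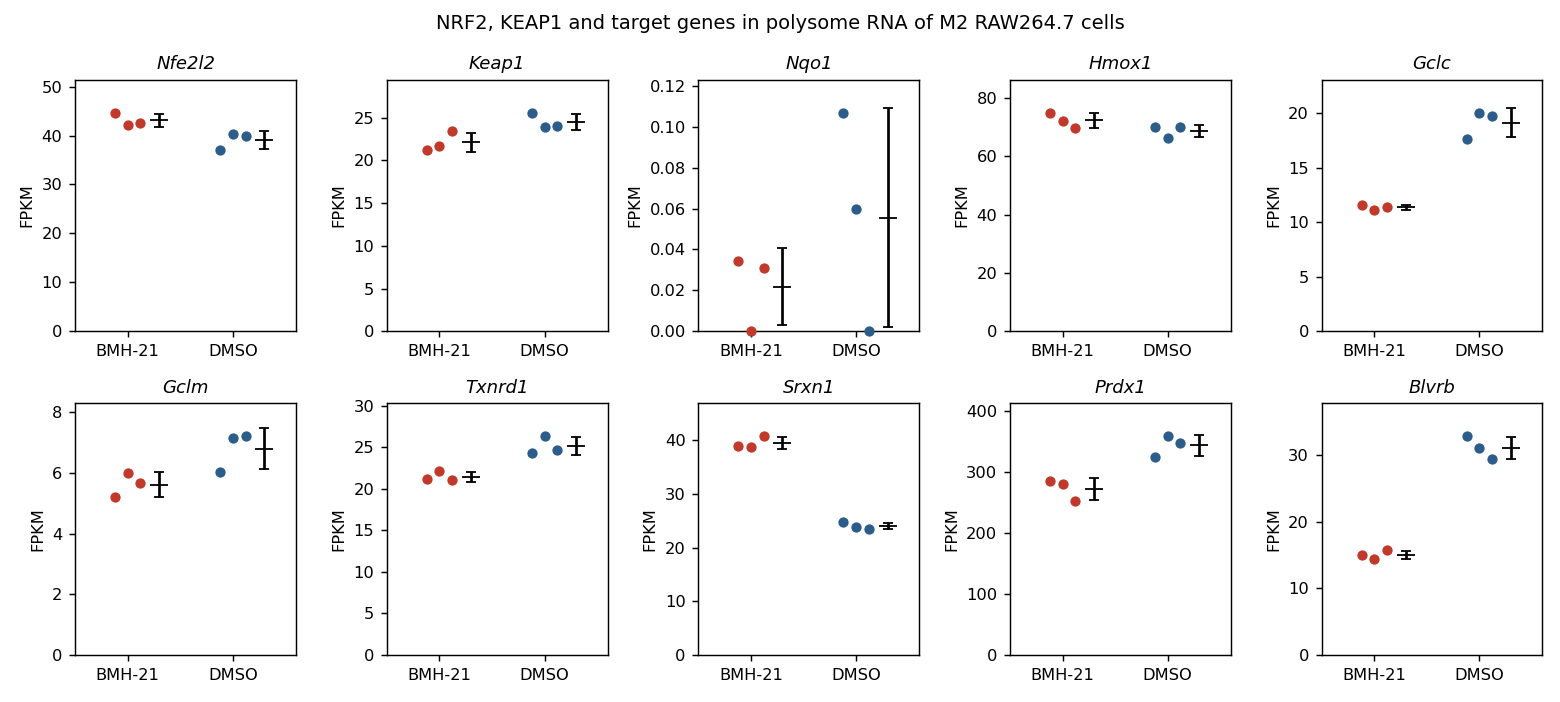
FPKM of the 10 genes in the 3 BMH-21 libraries (red, left) and the 3 DMSO libraries (blue, right), with the mean and SD beside each group in black and each vertical axis starting at 0. Srxn1 lay at 38.7 to 40.8 FPKM in BMH-21 against 23.5 to 24.7 in DMSO, Blvrb and Gclc lay lower in every BMH-21 library, and Nqo1 never exceeded 0.107 FPKM.

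Nfe2l2 (chromosome 2, 75675513 to 75704641 on GRCm38, minus strand) encodes the transcription factor itself. It was at 44.7, 42.2 and 42.5 FPKM in BMH-21 libraries and at 37.0, 40.3 and 39.9 FPKM in DMSO libraries. All 3 BMH-21 values lay above all 3 DMSO values, but the gap between the nearest libraries was small. The means were 43.1 ± 1.4 FPKM in BMH-21 and 39.1 ± 1.8 FPKM in DMSO (SD, n = 3 each), and limma gave 0.14 ± 0.05 on the log2 scale (SE, adjusted p = 0.017). The call was lost with column totals made equal, at 0.020, without BMH-21 replicate 1 or DMSO replicate 1, and against DMSO library 3 alone, at 0.11 (limma adjusted p = 0.16). With median-ratio scaling the change was 0.43 (limma adjusted p = 1.1e-05). In rank, the fold change of Nfe2l2 stood at percentile 80.2 of all tested genes, above most of them.

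Keap1 (chromosome 9, 21229730 to 21239361, minus strand), whose product holds NRF2 for degradation, was at 21.2, 21.7 and 23.4 FPKM in BMH-21 and at 25.6, 23.9 and 24.0 FPKM in DMSO. The BMH-21 values were all lower, with the highest of them close to the lowest DMSO value. On the log2 scale limma gave −0.14 ± 0.05 (SE, adjusted p = 0.020). With median-ratio scaling the call turned to higher, at 0.14 (limma adjusted p = 0.035). The sign also turned, with no call, when upper quartiles were matched, at 0.083, and after quantile normalization, at 0.078. The call was also lost against DMSO library 3 alone (limma adjusted p = 0.18) and without BMH-21 replicate 1, BMH-21 replicate 2 or DMSO replicate 1. The annotated antisense transcript Gm16754 overlaps Keap1, and the library kit is not stated to mark the strand, so that reads of the pair cannot be told apart.

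A ratio of Nfe2l2 to Keap1 within a library is unchanged by scalings that multiply all values of a library by the same factor. Quantile normalization is not of that kind, and with it Nfe2l2 was at 0.23 and Keap1 at 0.078 on the log2 scale. As deposited, the ratio was 2.11, 1.94 and 1.82 in BMH-21 and 1.45, 1.69 and 1.66 in DMSO, higher in every BMH-21 library. The ratio of Nfe2l2 to Bach1, the competing repressor, moved further, at 6.99, 6.73 and 7.10 in BMH-21, against 3.32, 3.38 and 3.74 in DMSO. Such a ratio shows unequal change and not which gene changed. The pairs were chosen after the values were seen and were not tested.

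**Figure D2:**
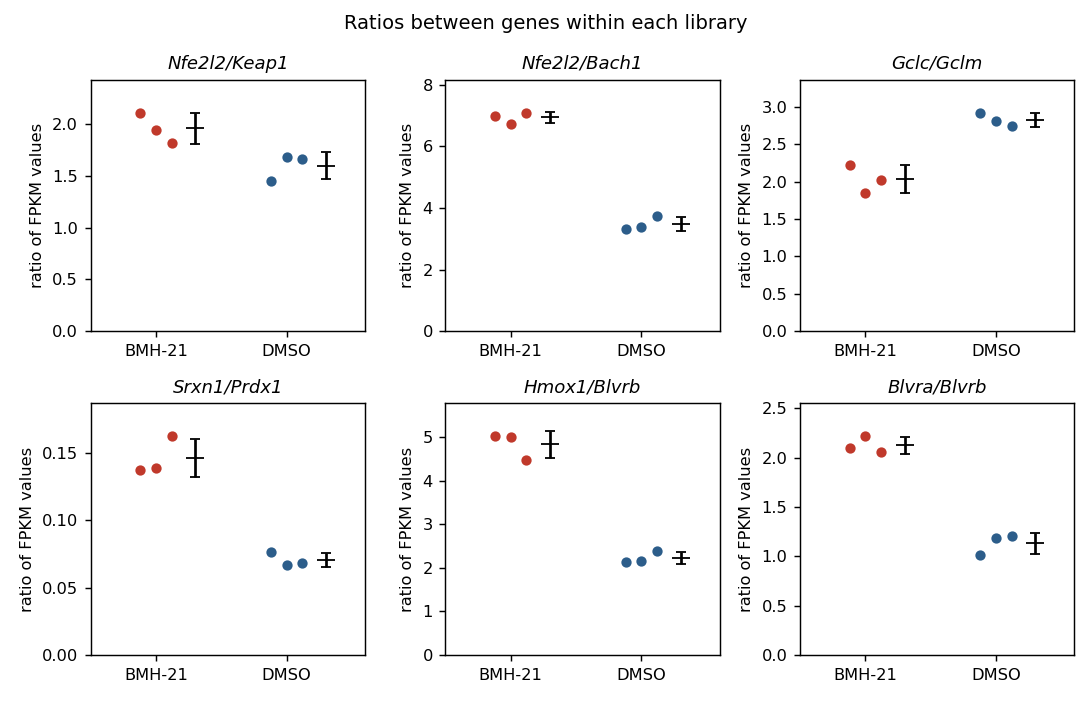
Ratios of FPKM between pairs of genes within each library, for 3 BMH-21 libraries (red, left) and 3 DMSO libraries (blue, right), with mean and SD in black and axes from 0. The groups do not overlap in the 6 ratios shown, whose pairs were chosen after the values were seen. Of single tested genes 79.8% did not overlap, and no such share was computed for other pairs of genes. Gclc/Gclm is the one of these 6 that was lower in BMH-21, at 1.85 to 2.23 against 2.74 to 2.92 in DMSO.

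The other control genes of NRF2 were taken from a list of 18 genes besides Nfe2l2 and Keap1, of which 13 were tested. Of these, 2 were called higher and 9 lower, or 3 and 6 with median-ratio scaling. The counts of this and the following lists stand beside 19.9% higher and 58.4% lower over all tested genes, and 38.2% and 35.3% with median-ratio scaling. Bach1 fell, at 6.40, 6.26 and 5.99 FPKM in BMH-21 and 11.2, 11.9 and 10.7 FPKM in DMSO, with a limma estimate of −0.76 on the log2 scale (adjusted p = 4.4e-07), and kept this direction and call under all 5 scalings. Mafk, a small MAF partner of NRF2 and of BACH1, rose, at 43.1 ± 2.2 FPKM in BMH-21 and 31.0 ± 1.7 FPKM in DMSO (SD, n = 3 each), also under all 5 scalings. The related small MAF gene Mafg was at 28.2 ± 0.28 FPKM in BMH-21 and 32.6 ± 0.98 FPKM in DMSO, and its lower call was lost after quantile normalization, at −0.055, and its sign turned after median-ratio scaling, at 0.080, and when upper quartiles were matched, at 0.024. Within libraries the Mafk to Mafg ratio was 1.44, 1.63 and 1.52 in BMH-21 and 0.984, 0.929 and 0.934 in DMSO. Between DMSO libraries the levels of Mafk and Mafg overlapped. Cul3, the ligase scaffold that KEAP1 serves, fell to 11.3 ± 0.44 FPKM in BMH-21, against 15.8 ± 1.1 FPKM in DMSO. Nfe2l1, which encodes the related factor NRF1, fell to 54.4 ± 1.1 FPKM in BMH-21, against 75.7 ± 1.5 FPKM in DMSO, and Rxra, a nuclear receptor able to bind NRF2, to 5.77 ± 0.40 FPKM in BMH-21, against 8.44 ± 0.33 FPKM in DMSO. These last 3 kept their call under all 5 scalings. Sqstm1, the autophagy receptor p62 that removes KEAP1, was at 123 ± 3.5 FPKM in BMH-21 and 157 ± 3.1 FPKM in DMSO, a lower call that was lost with median-ratio scaling, at −0.058.

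Among the glutathione genes, the catalytic and the modifier subunit of glutamate-cysteine ligase moved unequally. Gclc (chromosome 9, 77754535 to 77794485, plus strand), the catalytic subunit, was at 11.6, 11.1 and 11.4 FPKM in BMH-21 and at 17.6, 20.1 and 19.8 FPKM in DMSO. The BMH-21 libraries were closely grouped and far below the lowest DMSO library. The mean was 59.3% of the DMSO mean, and limma gave −0.70 ± 0.05 on the log2 scale (SE, adjusted p = 1.0e-06) and values of −0.43 to −0.85 under the 4 other scalings. Gclm (chromosome 3, 122245557 to 122270732, plus strand), the modifier subunit, was at 5.20, 6.01 and 5.66 FPKM in BMH-21 and at 6.03, 7.16 and 7.21 FPKM in DMSO. The groups did not overlap, but the highest BMH-21 value nearly met the lowest DMSO value. Its limma estimate of −0.23 ± 0.07 on the log2 scale (SE, adjusted p = 0.012) was close to the all-gene median, and turned to 0.020 with median-ratio scaling and to 0.066 with quantile normalization, with −0.030 when upper quartiles were matched. A pseudogene, Gm6061, and an opposite-strand transcript, Gm17494, overlap Gclm, which leaves its value uncertain. Within libraries the ratio of Gclc to Gclm was 2.23, 1.85 and 2.01 in BMH-21 and 2.92, 2.80 and 2.74 in DMSO.

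Of 14 other tested genes of glutathione synthesis and recycling, 4 were called higher and 8 lower, or 6 and 6 with median-ratio scaling. Slc7a11, the cystine importer and a target of both NRF2 and ATF4, was at 3.99, 3.69 and 4.13 FPKM in BMH-21 and at 1.49, 1.62 and 1.46 FPKM in DMSO. It rose by 0.97 on the scale of log2(FPKM + 1) (limma adjusted p = 1.8e-07), and under all 5 scalings. Its ratio of means was 2.59, a larger fold than that scale shows for a gene this low. Glrx5, a mitochondrial glutaredoxin of iron-sulfur cluster assembly, also rose, at 56.7 ± 4.9 FPKM in BMH-21 and 38.9 ± 1.3 FPKM in DMSO. Chac1 and Chac2, which degrade glutathione, fell, Chac1 to 17.2 ± 0.39 FPKM in BMH-21, against 26.4 ± 0.33 FPKM in DMSO, and Chac2 to 5.18 ± 0.62 FPKM in BMH-21, against 7.99 ± 0.60 FPKM in DMSO. Gsr, the reductase that regenerates glutathione, was at 29.4 ± 1.2 FPKM in BMH-21 and 35.4 ± 1.6 FPKM in DMSO, a lower call whose sign turned after median-ratio scaling, at 0.026, and which was lost when upper quartiles were matched, at −0.031.

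The glutathione peroxidases and transferases were represented by 12 tested genes, 2 called higher and 9 lower, or 4 and 7 with median-ratio scaling. The list's median log2 fold change was −0.53, beside −0.23 for all tested genes. Gpx1, the main cytosolic glutathione peroxidase, rose and was at 205.6, 197.5 and 194.2 FPKM in BMH-21 and at 107.5, 107.1 and 112.2 FPKM in DMSO. Mgst2, a microsomal transferase, rose to 12.9 ± 1.2 FPKM in BMH-21, against 8.63 ± 0.070 FPKM in DMSO. The transferase gene Gsto1 fell to 68.1 ± 0.62 FPKM in BMH-21, against 114 ± 2.7 FPKM in DMSO, and Gstp1 to 5.15 ± 0.19 FPKM in BMH-21, against 8.59 ± 0.65 FPKM in DMSO. These 4 kept their calls under all 5 scalings. Gstp1 has close paralogs, and the rule for dividing reads among them is not stated.

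In the thioredoxin branch Srxn1 rose, and Prdx1, which encodes a substrate of sulfiredoxin, was called lower as deposited. Srxn1 (chromosome 2, 152105516 to 152111376, plus strand) encodes sulfiredoxin, which restores overoxidized peroxiredoxins. It was at 39.0, 38.7 and 40.8 FPKM in BMH-21 and at 24.7, 23.9 and 23.5 FPKM in DMSO. Every BMH-21 library was far above every DMSO library, and the spread within each group was small. Srxn1 averaged 39.5 ± 1.1 FPKM in BMH-21 and 24.0 ± 0.63 FPKM in DMSO (SD, n = 3 each), a 1.64-fold ratio of means, for which limma gave 0.69 ± 0.04 on the log2 scale (SE, adjusted p = 1.6e-07). Its change was between 0.59 and 0.98 under the 4 other scalings, 0.72 against DMSO library 3 alone, and stood at percentile 96.4 of all tested genes.

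Prdx1 (chromosome 4, 116685544 to 116700822, plus strand), an abundant cytosolic peroxiredoxin, was at 284.7, 279.8 and 251.1 FPKM in BMH-21 and at 324.2, 357.9 and 346.5 FPKM in DMSO. The BMH-21 values were lower throughout, and library 3 was the lowest of them. On the log2 scale limma gave −0.33 ± 0.06 (SE, adjusted p = 0.00034), and the call was lost at −0.040 after median-ratio scaling and at −0.098 when upper quartiles were matched. The processed pseudogenes Gm21399 and Gm7204 align to the Prdx1 transcript at 98.3% and 97.5% identity over 597 bases each, and a share of its reads could have been split with them. Within libraries the ratio of Srxn1 to Prdx1 was 0.137, 0.138 and 0.162 in BMH-21 and 0.0763, 0.0667 and 0.0679 in DMSO.

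Txnrd1 (chromosome 10, 82833951 to 82897712, plus strand), the cytosolic thioredoxin reductase, was at 21.2, 22.1 and 21.1 FPKM in BMH-21 and at 24.3, 26.4 and 24.7 FPKM in DMSO. The groups did not overlap and the change was near that of the typical gene. Its limma estimate was −0.22 ± 0.04 on the log2 scale (SE, adjusted p = 0.0012), and its sign turned at 0.066 after median-ratio scaling, 0.0098 when upper quartiles were matched and 0.0041 after quantile normalization. Eid3, on the same strand, and 2 opposite-strand transcripts overlap Txnrd1. The substrate of the enzyme, thioredoxin, is encoded by Txn1, which was at 871, 956 and 914 FPKM in BMH-21 and at 823, 817 and 817 FPKM in DMSO. Txn1 was called higher (limma adjusted p = 0.0082), a call lost with quantile normalization, at −0.016, and with column totals made equal, at 0.036. Within libraries the ratio of Txnrd1 to Txn1 was 0.0243, 0.0232 and 0.0231 in BMH-21 and 0.0295, 0.0323 and 0.0303 in DMSO, lower in every BMH-21 library.

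Of 18 other tested genes of the thioredoxin and peroxiredoxin system, 6 were called higher and 11 lower, or 8 and 6 with median-ratio scaling. Msrb1, a selenoprotein gene whose product repairs oxidized methionine, rose and was at 226 ± 14 FPKM in BMH-21 and 112 ± 1.5 FPKM in DMSO, and Msrb2, a mitochondrial form, rose and was at 7.89 ± 0.50 FPKM in BMH-21 and 5.03 ± 0.53 FPKM in DMSO. Msra, the methionine sulfoxide reductase of the other stereoisomer, was called lower, at −0.24 on the log2 scale, but not under all 5 scalings. Prdx4, the peroxiredoxin of the endoplasmic reticulum, fell to 35.0 ± 1.6 FPKM in BMH-21, against 63.2 ± 0.70 FPKM in DMSO. Prdx6, which reduces phospholipid peroxides with glutathione, fell to 45.7 ± 1.1 FPKM in BMH-21, against 72.5 ± 1.2 FPKM in DMSO. Msrb1, Msrb2, Prdx4 and Prdx6 kept their calls under all 5 scalings.

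Heme enters the set through Hmox1, the inducible heme oxygenase that opens heme to biliverdin, and Blvrb, a reductase of flavins and of biliverdin. Hmox1 (chromosome 8, 75093621 to 75100589, plus strand) was at 75.1, 72.0 and 69.9 FPKM in BMH-21 and at 70.0, 66.5 and 70.1 FPKM in DMSO. The groups overlapped, with BMH-21 library 3 below 2 of the DMSO libraries. On the log2 scale limma gave 0.07 ± 0.04 (SE, adjusted p = 0.15), which did not pass. It passed as higher with median-ratio scaling, at 0.36, and when upper quartiles were matched, at 0.30, and was −0.051 with column totals made equal. The constitutive Hmox2 was at 55.5 ± 0.87 FPKM in BMH-21 and 67.1 ± 0.91 FPKM in DMSO, a lower call whose sign turned after median-ratio scaling, at 0.021, and which was lost when upper quartiles were matched, at −0.036. The Hmox1 to Hmox2 ratio was 1.36, 1.31 and 1.24 in BMH-21 and 1.06, 0.989 and 1.03 in DMSO.

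Blvrb (chromosome 7, 27447978 to 27466144, plus strand) fell furthest of the members. It was at 15.0, 14.4 and 15.7 FPKM in BMH-21 and at 32.8, 31.0 and 29.5 FPKM in DMSO. Every BMH-21 library was far below the lowest DMSO library. The mean was 48.3% of the DMSO mean, and limma gave −1.002 ± 0.05 on the log2 scale (SE, adjusted p = 6.2e-08), −0.72 to −1.15 under the 4 other scalings and −0.93 against DMSO library 3 alone. Its change stood at percentile 5.20 of all tested genes. The related reductase gene Blvra was at 31.9 ± 0.37 FPKM in BMH-21 and 35.1 ± 1.7 FPKM in DMSO, and its call as lower turned to higher after median-ratio scaling, at 0.15. Blvra was not called when upper quartiles were matched, at 0.098, or after quantile normalization, at −0.0020. The ratio of Blvra to Blvrb was 2.10, 2.22 and 2.06 in BMH-21 and 1.01, 1.18 and 1.204 in DMSO. Hmox2 and Blvra were chosen as partners after their values were seen.

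Of 17 other tested genes of heme breakdown and iron handling, 4 were called higher and 10 lower, or 8 and 6 with median-ratio scaling. The ferritin heavy chain gene Fth1, an NRF2 target, was at 434, 411 and 423 FPKM in BMH-21 and at 426, 424 and 430 FPKM in DMSO, and did not pass (limma adjusted p = 0.77). Fth1 was called higher after median-ratio scaling, at 0.28, and when upper quartiles were matched, at 0.22, and lower after quantile normalization, at −0.21, and with column totals made equal, at −0.13. The light chain gene Ftl1 was called higher, at 2279 ± 22 FPKM in BMH-21 and 1719 ± 33 FPKM in DMSO (SD, n = 3 each), and this turned to lower with quantile normalization, at −0.082. The transferrin receptor gene Tfrc rose to 6.70 ± 0.21 FPKM in BMH-21, against 4.21 ± 0.22 FPKM in DMSO. Slc11a1, the phagosomal metal transporter, rose to 25.7 ± 1.2 FPKM in BMH-21, against 18.2 ± 0.46 FPKM in DMSO. Pcbp2, an iron chaperone and RNA-binding protein, fell to 38.2 ± 0.48 FPKM in BMH-21, against 81.7 ± 3.2 FPKM in DMSO.

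Nqo1 (chromosome 8, 107388225 to 107403206, minus strand), the quinone reductase often read as a marker of NRF2 activity, was close to the lower end of the table. It was listed at 0.0343, 0 and 0.0309 FPKM in BMH-21 and at 0.107, 0.0596 and 0 FPKM in DMSO. The groups overlapped and the gene did not reach the filter, so no fold change is given. No difference was detectable at this depth.

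**Figure D3:**
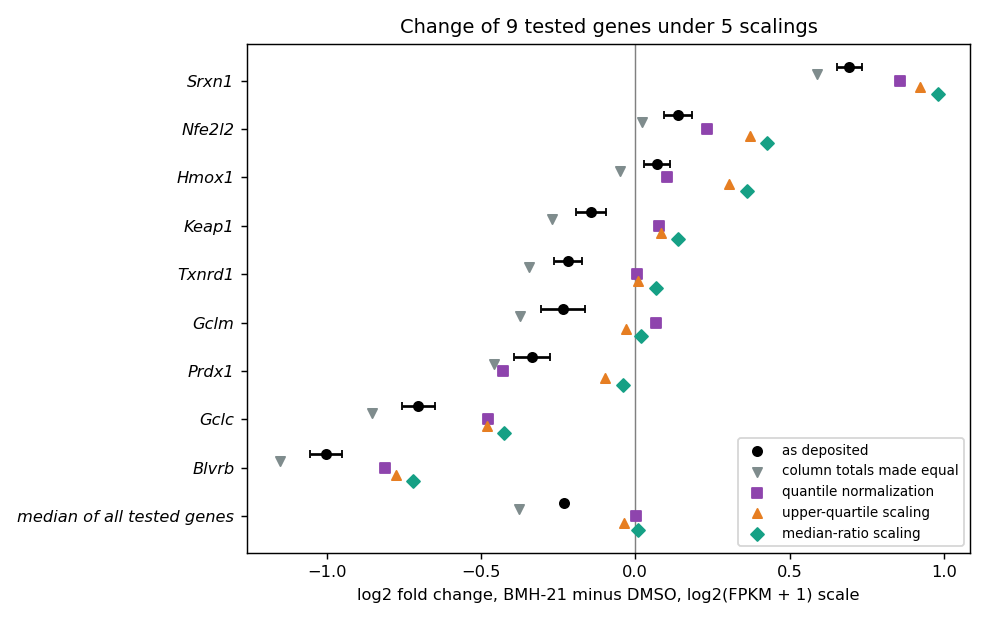
Log2 fold change, BMH-21 minus DMSO, of the 9 tested genes and of the median of all tested genes under 5 scalings, with SE bars on the values as deposited. Srxn1 stays right of 0 and Gclc and Blvrb left of 0 under all 5, while Keap1, Txnrd1, Gclm and Hmox1 have values on both sides.

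By level, the order of the members in BMH-21 was Prdx1, Hmox1, Nfe2l2, Srxn1, Keap1, Txnrd1, Blvrb, Gclc, Gclm and Nqo1. In DMSO it was Prdx1, Hmox1, Nfe2l2, Blvrb, Txnrd1, Keap1, Srxn1, Gclc, Gclm and Nqo1. FPKM is scaled by length, but the lengths used are not stated. Reads of Prdx1, Gclm, Keap1 and Txnrd1 may also be shared with other transcripts. An annotated small nuclear RNA, Gm24996, overlaps Nfe2l2 on the same strand. These orders are therefore approximate. Keap1 and Txnrd1 overlapped in both groups, as did Keap1 and Srxn1 in DMSO, and all other neighbours in these orders were separated in every library. Srxn1 and Blvrb exchanged places between the groups.

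Of 20 tested genes of quinone, aldehyde and xenobiotic metabolism, 3 were called higher and 16 lower (80.0%), beside 19.9% and 58.4% of all tested genes. With median-ratio scaling the counts were 6 and 12, beside 38.2% and 35.3%. The list's median log2 fold change was −0.53, beside −0.23 for all tested genes. Ptgr1, prostaglandin reductase and an NRF2 target, was at 5.34, 4.81 and 5.48 FPKM in BMH-21 and at 11.96, 12.6 and 12.8 FPKM in DMSO. Aldh9a1, an aldehyde dehydrogenase, fell to 13.7 ± 0.20 FPKM in BMH-21, against 36.2 ± 1.2 FPKM in DMSO. The carbonyl reductase gene Cbr3 fell to 11.4 ± 0.13 FPKM in BMH-21, against 21.6 ± 0.83 FPKM in DMSO, and Adh5, which breaks down S-nitrosoglutathione, to 8.50 ± 0.19 FPKM in BMH-21, against 17.1 ± 1.0 FPKM in DMSO. All 4 fell under all 5 scalings, as did 12 of the 20, beside 30.9% of all tested genes, and none of the 20 was higher under all 5.

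NADPH is drawn on by the glutathione and thioredoxin reductases. The list for its supply also held genes of linked enzymes that do not form it themselves, such as Tkt. Of its 17 tested genes, 2 were called higher and 13 lower (76.5%), beside 19.9% and 58.4% of all tested genes. With median-ratio scaling the counts were 5 and 9, beside 38.2% and 35.3%. The list's median was −0.60, again beside −0.23. G6pdx, the entry enzyme of the pentose phosphate pathway, fell and was at 10.9, 9.88 and 11.7 FPKM in BMH-21 and at 17.4, 18.2 and 18.0 FPKM in DMSO. Tkt, the pathway's transketolase, fell to 14.6 ± 0.74 FPKM in BMH-21, against 31.9 ± 0.42 FPKM in DMSO. The mitochondrial isocitrate dehydrogenase gene Idh2 fell to 26.7 ± 1.5 FPKM in BMH-21, against 95.1 ± 2.6 FPKM in DMSO, and the folate enzyme gene Mthfd2 to 36.6 ± 0.61 FPKM in BMH-21, against 92.4 ± 1.6 FPKM in DMSO. Me2, a mitochondrial malic enzyme gene, fell to 5.10 ± 0.33 FPKM in BMH-21, against 14.0 ± 0.53 FPKM in DMSO. The genes that rose were cytosolic Idh1 and Me1, and they, like 9 of the falls, kept their calls under all 5 scalings, beside 14.0% higher and 30.9% lower of all tested genes.

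Among enzymes that make or remove superoxide and hydrogen peroxide, 3 of 11 tested genes were called higher and 7 lower, or 5 and 4 with median-ratio scaling. Catalase, Cat, was at 3.87, 3.93 and 4.21 FPKM in BMH-21 and at 7.90, 8.64 and 8.49 FPKM in DMSO, a fall under all 5 scalings. Cybb, the catalytic subunit of the phagocyte oxidase, fell to 18.1 ± 0.35 FPKM in BMH-21, against 32.3 ± 0.73 FPKM in DMSO. Cyba, its membrane partner, was among the genes called higher under all 5 scalings. Ucp2, a mitochondrial carrier, rose to 304.5 ± 18 FPKM in BMH-21, against 167 ± 2.9 FPKM in DMSO.

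**Figure D4:**
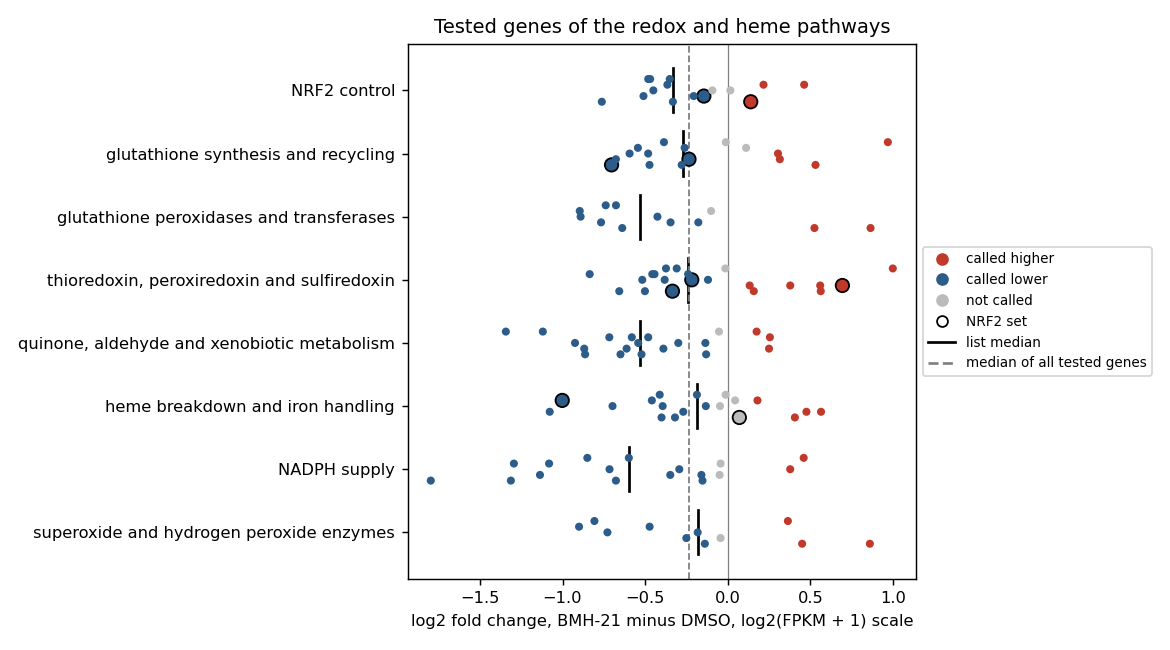
Log2 fold change, BMH-21 minus DMSO, of every tested gene in 8 pathway lists, coloured by the limma call, with the 9 tested members of the set ringed where a list holds them. Black bars mark list medians and the dashed line the median of all tested genes (−0.23). The medians of 6 lists lie left of it, from −0.24 for the thioredoxin list to −0.60 for NADPH supply, those of the heme and iron list (−0.19) and the superoxide list (−0.18) lie right of it, and every list has genes on both sides of 0.

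Over all 8 lists, 121 genes that are not members were tested, and 26 (21.5%) were called higher and 82 (67.8%) lower, where the background was 19.9% and 58.4%. With median-ratio scaling 45 (37.2%) were higher and 55 (45.5%) lower, where the background was 38.2% and 35.3%. Under all 5 scalings 18 of the 121 were higher and 49 lower, beside 14.0% and 30.9% of all tested genes. Their median log2 fold change was −0.35.

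The genes whose profile over the 6 libraries lay closest to that of Nfe2l2, by Euclidean distance of log2(FPKM + 1) centred on the DMSO mean, were Kansl1, Ube2r2 and Vps33a, with distances of 0.030, 0.036 and 0.041. Those closest to Blvrb were Tdp2, Ccdc88b and Epsti1, with distances of 0.066, 0.077 and 0.080. Both searches ran over 5868 genes with a mean of at least 5 FPKM, and with 2 groups of libraries such likeness rests mainly on the difference between groups.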

How the data were processed

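Polysome RNA of 6 libraries was measured by RNA sequencing after oligo-dT enrichment. The molecule is given as total RNA for 5 libraries and as polyA RNA for DMSO replicate 2. The tools were Trimmomatic 0.38, SAMtools and HISAT2 and the build was mm10, per the submitters' processing notes. The authors deposited normalised values for 19233 genes, read here from the values as FPKM. No source used here names the counter, the annotation or the normalising tool. Groups and replicate numbers came from titles.

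Depth was estimated from steps between low values. In each library 506 to 565 single-transcript genes with low values were used, and 62.5% to 67.8% of them fell within 0.01 of a whole read number. Counts could not be recovered from this, and a count model was not used. The test was limma 3.58.1 (R 4.3.3) on log2(FPKM + 1) over the 9748 genes (50.7%) that reached 1 FPKM in 3 or more libraries, with a trend on intensity and Benjamini-Hochberg adjustment over all of them at 0.05. Fold changes on this scale understate those of low genes. In a simulation on 9748 genes, 50 genes were changed at each fold, up or down, and 9548 were left unchanged. There 40% of genes changed 1.2-fold and 90% of those changed 1.5-fold were recovered, and 12 of the 9548 unchanged genes were called. In the deposited values 78.3% of tested genes were called, so the simulated rates need not hold for them. Separate cultures are not stated for the replicates. The p-values therefore rest on the spread among these libraries alone, which may be technical. An exact two-sided permutation test of a single gene, 3 against 3, cannot give a p below 0.10, and 8 members gave that value, Hmox1 0.30 and Nqo1 0.50.

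Alternatives covered the pseudocount, the filter, 4 scalings, the trend, the replicate block and leaving out each library. The members, lists and tests were chosen with earlier results of these data known. Non-member genes named were, per list, up to 4 called genes with a mean of at least 5 FPKM and the largest change, and Bach1, Mafg, Cul3, Sqstm1, Slc7a11, Gsr, Txn1, Cat, G6pdx and Fth1 whatever their values. A gene that this rule covers is not reported here. Me1, Idh1, Cyba, Msra, Hmox2 and Blvra were named after their values were seen. Gene positions are from GENCODE M21 (GRCm38, the assembly of mm10) and promoter letters from RefSeq (GRCm38.p6).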

Additional observations from a re-analysis of the deposited data

How the results depend on the processing

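Srxn1, Gclc and Blvrb kept direction and call under every alternative run, and Prdx1 and Txnrd1 under every one that was not a scaling. With median-ratio scaling the counts of all tested genes were 3724 higher and 3442 lower, against 1938 and 5690 as deposited, and of members 4 and 2, against 2 and 6. Keap1, at 0.14, and Hmox1, at 0.36, were then called higher. Txnrd1, at 0.066, Gclm, at 0.020, and Prdx1, at −0.040, were not called. When upper quartiles were matched 3349 genes were higher and 2 members lower, with Keap1 at 0.083, Txnrd1 at 0.0098, Gclm at −0.030, Prdx1 at −0.098 and Hmox1 at 0.30. With quantile normalization 3517 genes were higher and 3498 lower, and 3 members lower, with Keap1 at 0.078, Gclm at 0.066 and Txnrd1 at 0.0041. With column totals made equal 1 member was higher, with Nfe2l2 at 0.020 and Hmox1 at −0.051. With no filter Keap1, at −0.14 (limma adjusted p = 0.054), and Gclm, at −0.23 (limma adjusted p = 0.068), were no longer called. With DMSO replicate 3 as the lone control, an alternative added after the data were seen in which that library was assumed to vary like the BMH-21 libraries, 1 member was higher, and Nfe2l2, at 0.11, and Keap1, at −0.12, were not called. Which feature of a scaling moved each value was not tested beyond the shift of the all-gene median.

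Leaving out each library in turn, genes called ranged from 1816 to 1876 higher and 5450 to 5597 lower, members from 1 to 2 higher and 5 to 6 lower, Nfe2l2 from 0.10 to 0.16 (limma adjusted p = 0.019 to 0.066), Keap1 from −0.18 to −0.11 (0.0077 to 0.073), Gclm from −0.31 to −0.19, Txnrd1 from −0.24 to −0.18, Prdx1 from −0.37 to −0.28, Gclc from −0.76 to −0.67, Blvrb from −1.04 to −0.96, Srxn1 from 0.67 to 0.71 and Hmox1 from 0.043 to 0.094. Of the 16 list counts, 10 moved by over 1.5 times after median-ratio scaling, 5 when upper quartiles were matched, 4 after quantile normalization, 2 with column totals made equal and 1 with DMSO replicate 3 alone, and 0 under the other alternatives. No sign of pairing by replicate number was seen: deviations of same-numbered libraries correlated at −0.112, −0.094 and −0.064. These values cannot show whether same-numbered libraries were handled together. With the replicate block 1894 genes were higher and 5608 lower, and no member's call changed. At 18770000 to 24070000 implied reads, Nqo1 was too low for a comparison.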
